A study of Mus musculus with 4 samples.

Results

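The genes described here are the named mouse genes listed with no more than 3 guides each in the results of a pooled CRISPR knockout screen. They were taken from the authors' deposited table as every entry with 1, 2 or 3 guides whose name is not that of a microRNA, a non-targeting control or a numbered predicted gene (Gm and a digit). This gave 245 of 20380 genes, or 1.20%, with 529 of 116691 gene guides. Of these, 56 genes had 1 guide, 94 had 2 and 95 had 3. No filter on low values was applied here, and every one of the 245 has a value. All entries together count 121918 guides, fewer than the 130209 of the library. A low count may thus also come from guides left out or assigned to another entry, which was not tested.

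The screen was done in E14, an established mouse embryonic stem cell line with a tdTomato reporter of MERVL, a retrovirus-derived repeat that 2-cell embryos transcribe, as do the few stem cells that pass into a 2-cell-like state in culture. About 130000000 cells received the lentiviral library (130209 guides against 20611 genes, in the lentiCRISPRv2 backbone, which carries Cas9 and the guide together) for 24 h with polybrene at 4 ug/mL. Puromycin at 2 ug/mL then selected them for 48 h, and a sort at day 5 took about 500000 reporter-positive cells. There are 4 libraries, 2 of MERVL-positive and 2 of total cells, titled as sequencing repeats of the same line and genotype, with no other treatment. No separate cultures are named, so the authors' p-values may measure technical spread alone. The authors' deposited table compares the groups once per gene and does not list the libraries, which leaves depth and the spread between libraries unknown. With about 3.84 sorted cells per library guide, a gene without a call may still have an effect.

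A CRISPR guide directs Cas9 to a matching DNA sequence, and library designers prefer sequences that occur once in the genome. Genes that arose by recent duplication share most of their coding sequence with their copies and offer few unique sites. Very short genes also offer few. Reporter screens of this kind are read from the share of each guide in the sorted cells against the whole population.

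The promoter sequences of family members show how close such copies can be. They come from RefSeq on GRCm38.p6, the assembly with the coordinates of mm10, and lie just before an annotated start and outside the annotated span of their own gene, so they are not what the guides cut. For each family the 80-base stretch with the fewest differences between the genes is shown, 5′ to 3′ on the strand of the gene, with capitals at bases that differ from the first line. Vmn2r32 and Vmn2r49 encode vomeronasal pheromone receptors of chromosome 7. Their stretches, at chr7:7479974-7480053 and chr7:9992140-9992219 on the minus strand, have 0 differences.
Vmn2r32: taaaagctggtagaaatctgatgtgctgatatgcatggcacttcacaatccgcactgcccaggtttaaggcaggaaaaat
Vmn2r49: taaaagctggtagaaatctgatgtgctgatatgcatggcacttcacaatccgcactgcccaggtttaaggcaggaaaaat

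Zscan4 genes encode SCAN-domain zinc finger proteins and are classical markers of the 2-cell-like state. Zscan4f, which had 1 guide, has 0 differences from Zscan4c, which had 4 guides, and Zscan4d, which had 5, has 2. The stretches lie at chr7:11005642-11005721 (plus strand) for Zscan4c, chr7:11166183-11166262 (minus strand) for Zscan4d and chr7:11397835-11397914 (plus strand) for Zscan4f.
Zscan4c: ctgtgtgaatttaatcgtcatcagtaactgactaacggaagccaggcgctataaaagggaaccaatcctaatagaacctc
Zscan4d: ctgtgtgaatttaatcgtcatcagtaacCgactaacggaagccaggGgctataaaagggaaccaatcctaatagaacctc
Zscan4f: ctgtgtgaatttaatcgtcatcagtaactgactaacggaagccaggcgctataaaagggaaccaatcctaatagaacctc

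The Rhox genes are homeobox genes of the X chromosome with roles in reproductive tissues. Rhox2h, with 2 guides, differs at 1 base from Rhox2a, with 6 guides, over the stretches at chrX:37673289-37673368 (minus strand) and chrX:37244901-37244980 (plus strand).
Rhox2a: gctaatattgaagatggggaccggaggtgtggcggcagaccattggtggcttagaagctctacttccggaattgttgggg
Rhox2h: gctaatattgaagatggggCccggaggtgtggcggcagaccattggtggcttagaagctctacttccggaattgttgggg

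Promoter windows shared with another gene were common among the few-guide genes and rarer with each further guide. The measure is the share of 20-base words, on either strand, that the 300-base promoter window of a gene (250 bases before the start and 50 after) has in common with the window of another gene that does not overlap it. A RefSeq promoter window was given for 160 of the 245 genes, and in 88 of them, or 55.0%, another gene held at least 50% of the words. Among named genes with 4 to 6 guides, 310 of 15584, or 1.99%, reached that share. By guide number, the share of named genes with such a shared window was 73.8% at 1 guide, 60% at 2, 38.1% at 3, 16.4% at 4, 3.19% at 5 and 1.39% at 6. Windows with all words found in another gene include those of Vmn2r33, Rhox3h, Defa21, Dmrtc1c2, Mrgpra2b and Spin2-ps1. The 34 few-guide clustered protocadherins had no window. Many few-guide histone windows shared few words, such as 2.85% in Hist1h3c. Copying of the coding sequence was not measured.

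The genes also lie close to relatives. Of 228 genes with a usable position and name, 178, or 78.1%, had a protein-coding gene of the same name root within 100 kb, against 20.7% of named genes with 4 to 6 guides. Chromosome 7 holds 47 of them (mostly vomeronasal receptors), chromosome 18 holds 38, the X chromosome 31 and chromosome 13, with its histone cluster, 23. Many are short, with 25.7% of annotated spans under 1000 bases against 5.86% for named genes with more guides. These properties of the genome do not depend on the screen.

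Positive log2 fold changes are taken to mean that guides were more frequent among MERVL-positive cells. The authors' deposited table does not name the numerator, so this is likely but not settled. The basis is the study's title, which ties loss of the Integrator subunit Ints7 to active MERVL, and the rank of Ints7, 157 for positive and 18586 for negative change in the authors' deposited table. Ints7 itself had a log2 fold change of only 0.14 there, with 3 of 6 guides up, 1 down and an enrichment false discovery rate of 0.931, so the basis is weak. With the opposite reading, every direction turns.

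At a false discovery rate of 0.05, 0 few-guide genes passed in the authors' deposited table, and the lowest rates were 0.889 for enrichment and 0.844 for depletion. Over all genes that rate was passed by 0 for enrichment and by 1, or 0.00491%, for depletion. For enrichment, 11 of the 245 had an unadjusted p under 0.05, or 4.49%, against a background of 5.02% of all genes in the authors' deposited table. For depletion the count was 15, or 6.12%, against 5.07%. Single non-targeting guides passed that limit in 3.91% for enrichment and 5.61% for depletion. At a p under 0.01, 3 and 5 few-guide genes passed, or 1.22% and 2.04%, against 1.07% and 1.12% of all genes. The shares at 0.05 lie near the background, so the counts are no result about these genes. The fold changes, guide calls and p-values that follow are all from the authors' deposited table, without error or replicate values, and describe single entries.

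As a group the few-guide genes sat slightly lower than other genes. Their median log2 fold change was -0.11, with 142 of 245 below 0 (58.0%, against 52.0% of all genes), and that of all genes was -0.021, computed from the authors' deposited table. The table also counts, for each gene, guides past an unstated threshold, here named up (positive side) or down (negative side). Of the 529 guides, 34.0% were up and 40.8% down, against 37.4% and 38.0% over all genes. With 1, 2 and 3 guides the medians were -0.091, -0.13 and -0.14. The 112 numbered predicted genes with 1 to 3 guides had a median of -0.025.

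Values spread more widely the fewer guides they rest on. Across all genes the standard deviation of the log2 fold change was 1.11 at 1 guide, 0.82 at 2, 0.64 at 3, 0.56 at 4, 0.52 at 5 and 0.46 at 6, computed from the authors' deposited table. Just inside and just outside the limit of this selection, at 3 and 4 guides, the standard deviations were thus 0.64 and 0.56. The 56 named genes with 1 guide had a standard deviation of 0.98, and the 998 single non-targeting guides, which have no genomic target, had 0.77. Of these 56 genes, 3 lay below and 4 above the -1.65 to 1.34 that held the middle 95% of non-targeting guides. Few-guide genes are 1.20% of all genes but 13 of the 100 lowest and 9 of the 100 highest by log2 fold change in the authors' deposited table. A log2 fold change above 1 was listed for 11 of them and below -1 for 25, while over all genes 0.868% and 3.29% passed these limits. Of the 998 single non-targeting guides, 61 lay above 1 and 84 below -1. Taking both sides, 14.7% of few-guide genes, 14.5% of non-targeting guides and 4.16% of all genes passed. By guide number the few-guide share was 17.9% at 1 guide, 18.1% at 2 and 9.47% at 3. Over all genes with 1 guide it was 25.5%. Non-targeting entries hold 1 guide each, so their like are the genes with 1 guide, whose shares were higher. The near match of 14.7% and 14.5% thus mixes guide numbers. A share above that of all genes was found in guides without a target too.

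Guides of the same gene often pointed apart. Among the 94 genes with 2 guides, 13 had both guides up, 13 both down and 30 had 1 of each in the authors' deposited table. Of all 131 genes with 2 guides, most of them these 94, 13.0% had both up and 13.7% both down, and 36 had 1 of each. Among the 95 genes with 3 guides, 3 had every guide up and 9 every guide down, and over all 132 genes with 3 guides, most of them the same genes, the shares were 3.79% and 6.82%. Those with every guide up were the tight junction gene Marveld3 at 0.72, the proteasome lid subunit Psmd12 at 0.98 and the purine nucleoside phosphorylase gene Pnp at 0.53 in the authors' deposited table. Those with every guide down included Dux and Usp17le, given below, the tripartite-motif genes Trim12c at -1.67 and Trim43c at -0.75, the kinase gene Hipk3 at -1.12 and the zinc finger gene Zfp114 at -0.97 in the authors' deposited table. The other 3 were Hamp, which encodes the iron hormone hepcidin, at -0.84, Atxn7l3b at -0.82 and the salivary protein gene Spt1 at -0.56 in the authors' deposited table. Of these 12 genes, Marveld3 (enrichment), Dux and Usp17le (depletion) had an unadjusted p under 0.05 in their direction, as did 5.02% and 5.07% of all genes. The 12 were picked by guide calls from the same data as the p, so these p-values add no separate support.

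Genes of the 2-cell program with several genomic copies made up 7 of the few-guide genes. Their median log2 fold change was -0.87, with 5 of 7 below 0 (52.0% of all genes were), computed from the authors' deposited table. Of their 14 guides 8 were down, or 57.1%, against 38.0% of all gene guides. The 35 genes of the same list with 4 to 6 guides had a median of 0.12. The median of the 7 is the value of Oog1 alone, and their standard deviation was 1.18, so it describes no common shift. Dux, the transcription factor that switches on the 2-cell program and MERVL, is listed in the authors' deposited table at a log2 fold change of -1.41 and a depletion p of 0.00419, all 3 guides being down. Usp17le, a deubiquitinase gene on chromosome 7 from 104767961 to 104777470, had -1.89 with 3 of 3 guides down and a depletion p of 0.0098. Both had a low value with all guides on the same side, and neither passed the false discovery rate.

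Relatives of these genes with more guides did not sit together. Usp17la was at -0.92 with 4 of 6 guides down and a depletion p of 0.012, and Usp17lb, Usp17lc and Usp17ld had 0.043, 0.29 and 0.35 in the authors' deposited table. The single guide of Zscan4f, the gene whose promoter stretch equals that of Zscan4c, was at -2.34 in the authors' deposited table, with a depletion p of only 0.151. Zscan4c was at 0.12 with 2 of 4 guides each way, Zscan4d at -0.20, Zscan4b at -0.49 and the single guide of the pseudogene Zscan4e at 0.62. The values farthest from 0 among these copies were those of the entries with 1 guide. Oog1, a gene of growing oocytes, had -0.87 with 1 guide each way, and the PRAME-like genes Pramel4 and Pramel3 had 0.54 from 1 guide and -0.0088 from 3 in the authors' deposited table.

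Histone genes of the replication-dependent clusters, which supply new chromatin in S phase, contributed 23 entries. Their median log2 fold change was -0.16 with 17 of 23 below 0 (73.9%, against 52.0% of all genes), computed from the authors' deposited table. Of their 49 guides 24 were down and 7 up (49.0% and 14.3%, against 38.0% and 37.4% of all gene guides). The 42 histone genes with 4 to 6 guides had a median of -0.039, with 87 of 220 guides down and 80 up. By type, the few-guide median was -0.67 for 4 H2A genes, -0.43 for 9 H2B genes, -0.11 for 8 H3 genes and 0.063 for 2 H4 genes. With 4 to 6 guides it was -0.12 for 12 H2A genes (10 below 0), -0.31 for 9 H2B genes (7 below 0), -0.18 for 4 H3 genes, 0.22 for 11 H4 genes and 0.087 for 6 H1 genes. Low H2A, H2B and H3 values were thus found at both guide numbers, and the pooled medians also differ in how many H4 and H1 genes they hold. Of the 23 few-guide histone genes, 1 had an unadjusted enrichment p under 0.05 (all genes, 5.02%) and 4 a depletion p (17.4%; all genes, 5.07%), while 5 of the 42 with more guides, or 11.9%, had a depletion p.

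The lowest histone value in the authors' deposited table was that of the H3 gene Hist1h3f, -1.86, with a depletion p of 0.0138 and 2 of 3 guides down. The H2A gene Hist1h2ah had -0.85 with 2 of 3 guides down and a depletion p of 0.0129, and the single guide of the H2B gene Hist1h2bq had -0.78 with a p of 0.0322. Hist1h3c had the family's smallest depletion p in the authors' deposited table, 0.00949, at a log2 fold change of only -0.070 and 1 of 3 guides down. The highest value was 0.22 for Hist1h2bn with 2 of 3 guides up. These genes share coding sequence across the cluster, and guides assigned to one may match another, which was not tested.

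The housekeeping list of 32 genes, which includes the 23 histones, had a median of -0.25, against -0.063 for its 1411 genes with 4 to 6 guides, computed from the authors' deposited table. Of the 71 guides of the 32 genes, 33 were down and 14 up (46.5% and 19.7%, against 38.0% and 37.4% of all gene guides). The ribosomal protein gene Rpl34 had -2.35 with a depletion p of 0.049 and 2 of 2 guides down. The alpha-tubulin gene Tuba1c, by the authors' deposited table, had a depletion p of 0.0069 at a log2 fold change of -0.24 and had 1 of 3 guides down. The globin genes Hbb-bt and Hba-a2, which belong to red blood cells and are not housekeeping genes although the list holds them, had -1.51 and -0.27 from 1 guide each. Of the 32 genes, 23 were below 0 (71.9%, against 52.0% of all genes) and 9 above. Those above 0 included Psmd12 at 0.98 with 3 of 3 guides up, Tmsb15b2 at 0.43 and Tmsb15b1 at 0.049.

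Clustered protocadherins, cell-surface adhesion proteins that give neurons their identity, are the largest family after the vomeronasal receptors. In the alpha and gamma clusters each gene is a variable first exon spliced to exons that the cluster shares, while each beta gene is a single exon of its own. Of 36 alpha and gamma entries in the authors' deposited table, 34, or 94.4%, had 1 to 3 guides, and of 22 beta entries 0 did. The 34 genes had a median log2 fold change of -0.18, and the beta genes had -0.016. Of the 69 guides of the 34 genes, 28 were up and 30 down (40.6% and 43.5%, against 37.4% and 38.0% of all gene guides). Of the 34, 3 had an unadjusted depletion p under 0.05 (8.82%, against 5.07% of all genes), each a gamma A gene, and 0 an enrichment p (5.02% of all genes).

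Pcdhga12, on chromosome 18, had the smallest depletion p of all few-guide genes in the authors' deposited table, 0.00263, at a log2 fold change of -2.88 and both guides down. Its neighbours in the gamma A group ranged up to 1.06 in Pcdhga2, which had both guides up, so the 12 genes span both ends with a median of -0.34. Pcdhga7 had -0.88 with a depletion p of 0.0344. Pcdhga8 had a depletion p of 0.0432 although its log2 fold change was 0.58, and the authors' deposited table lists 2 of its guides as up and 1 as down. In the alpha cluster the values ran from -1.58 in Pcdha9 to 1.11 in Pcdha8, genes that lie next to each other, each with both guides on the same side. The 7 gamma B genes had a median of 0.35 and the 3 gamma C genes one of -0.55.

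The X-linked Rhox family had 10 few-guide genes, with a median of 0.30, while its 18 genes with 4 to 6 guides had a median of -0.11, computed from the authors' deposited table. Of the 15 guides of the 10 genes, 8 were up and 4 down (53.3% and 26.7%, against 37.4% and 38.0% of all gene guides). Rhox2h was at 1.54 with 2 of 2 guides up and an enrichment p of 0.0314, and Rhox2f at 0.87 with 2 of 3 guides up and a p of 0.0331 in the authors' deposited table. The single guide of Rhox2b was at 1.40 with a p of 0.0515, while that of Rhox2c was at -1.91 with a depletion p of 0.198. The copies with more guides lay between these values, with Rhox2a at -0.39 and 5 of 6 guides down, Rhox2g at -0.47 and Rhox2d at 0.18 in the authors' deposited table. Copies of Rhox2 thus had values on both sides of 0, and Rhox2b and Rhox2c share 92.2% and 92.9% of their promoter words with another Rhox2 gene. The 5 Rhox4 genes, with 6 guides in all, ran from -0.76 to 0.30.

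Xlr3c, a gene of the X-linked lymphocyte-regulated family, had the smallest enrichment p of all few-guide genes, 0.00255, at rank 148 of 22510 entries in the authors' deposited table. Both of its guides were up and its log2 fold change was 2.22 (X chromosome from 73254538 to 73265576). Its copies were at -0.65 in Xlr3b, with 1 guide each way, and at 0.28 in Xlr3a, with 3 of 5 guides up. The other few-guide Xlr genes lay between -0.66 and -0.094. Over the list of 31 sex-chromosome and germ-line genes, 3 had an unadjusted enrichment p under 0.05 (Xlr3c, Rhox2h and Rhox2f) and 0 a depletion p, or 9.68% and 0%, against 5.02% and 5.07% of all genes. Of the 259 genes of that list with more guides, 16 (6.18%) and 8 (3.09%) did. The medians were -0.094 and 0.017.

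Vomeronasal receptors, the pheromone receptors of the nose, formed the largest family with 39 genes and 77 guides. Their median was 0.0039, against 0.037 for the 265 with 4 to 6 guides, computed from the authors' deposited table. Of the 77 guides 32 were up and 28 down (41.6% and 36.4%, against 37.4% and 38.0% of all gene guides). The extremes were single guides, with Vmn2r49 at 2.56 (enrichment p = 0.0062), Vmn1r116 at 2.13 (0.015) and Vmn1r62 at -2.25 (depletion p = 0.0218) in the authors' deposited table. Vmn2r32, with the same promoter stretch as Vmn2r49, was at -0.012 with 1 guide up and 1 down of 3. Few-guide members were crowded in 1 part of the family: of 28 entries from Vmn1r94 to Vmn1r169 by number, 20 had 1 to 3 guides. With 3 olfactory receptors, V1rd19 and Mrgpra2b, the chemosensory list came to 44 genes with a median of 0.0084, against 0.029 for 1445 with more guides.

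Krtap2-4, a keratin-associated protein of hair, had the highest log2 fold change of all 20380 genes, 2.84, from 1 guide (enrichment p = 0.00451), and Krtap6-5 had an enrichment p of 0.0118 at -0.19 with 1 of 3 guides up in the authors' deposited table. Mup11, a major urinary protein made by the liver, had 0.93 with 2 of 2 guides up and a p of 0.0105, and Mup1 had 0.86 with 2 of 2 up. The 4 few-guide Mup genes had 5 of 6 guides up and 0 down, a count of only 6 guides. Over all genes 37.4% of guides were up and 38.0% down. The 6 Mup genes with more guides had a median of 0.45 with 15 of 30 guides up and 9 down, from -1.34 in Mup4 to 1.88 in Mup20. Prl2c3, a placental hormone gene of the prolactin family, had an enrichment p of 0.0455 at a log2 fold change of 0.016, with 1 guide each way, in the authors' deposited table. By list, the median was 0.23 for 8 skin barrier genes and 0.050 for 10 genes listed under reproductive tract, placenta and milk. For the members of these lists with more guides it was 0.053 and 0.010. The list of 10 was matched by name and includes the 4 Mup genes, although major urinary proteins are made by the liver.

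The remaining lists had few unadjusted calls. The 22 immunity genes, among them the natural killer receptors of the Klra family, the alpha-defensins and Trim12c, had 0 calls in either direction and a median of -0.028. At the 5.02% and 5.07% of all genes, a list of this size would hold few calls, so a 0 is no result about it. The 6 genes of xenobiotic and lipid enzymes and serpins also had 0, with a median of 0.14 and the cytochrome Cyp3a41b highest, at 1.32 from 1 guide, in the authors' deposited table. The 4 zinc finger genes ran from -1.37 in Zfp97 to 1.36 in Zfp600, also with 0 calls. All 5 unnamed clones were below 0, with C130026I21Rik at -1.79 (depletion p = 0.0253) and BC061212 at -2.65 (p = 0.0356, 2 of 3 guides down) by the authors' deposited table. The other 76 genes, 34 of them protocadherins, had a median of -0.21, with 1 enrichment call, Marveld3, and 4 depletion calls, the 3 protocadherins and the radial spoke gene Rsph3b.

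In several entries the log2 fold change and the p pointed to different strengths. The single guide of Rsph3b had a log2 fold change of -0.87 and a depletion p of 0.0157, while the single guides of Rhox2c and Zscan4f, at -1.91 and -2.34, are listed at p-values of 0.198 and 0.151 by the authors' deposited table. Hist1h2bm had an enrichment p of 0.0307 at a log2 fold change of 0.0031, with 1 guide each way. For an entry with 1 guide the fold change and the p come from the same guide. The counts behind each guide were not used here.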

How the data were processed

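Guide abundance was measured by PCR from genomic DNA of 2 libraries of MERVL-positive and 2 of total E14 cells, per the labels' protocols. The authors deposited 1 gene table. MAGeCK and mm10 are named in the submitters' processing notes, and its columns are those of that tool's gene output. The version, settings, normalization and numerator were not given in the sources used here. Per the file headers, the authors deposited for each entry the count of guides and of guides past a guide threshold, a score with its rank, a p-value and false discovery rate for each direction, and a log2 fold change. The threshold of the guides and the way they were combined are not stated. No count model was fitted, since the table has no value per library, and 0 columns of per-sample values were left unmapped.

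Entries were selected by guide number and name, and medians, counts and standard deviations were computed from the deposited values with pandas 2.3.3. The members, name families and gene lists were chosen with earlier results of these data known. Named were the 12 genes with the smallest p in each direction, the ends of families with 8 or more genes, the 2-cell list, and genes with 3 of 3 guides on the same side and a size over 1. Other genes were named after their values were seen. RefSeq symbols of GRCm38.p6 matched 204 of the 245 genes, synonyms 30 and neither 11. Positions starting before 3 Mb, outside chromosome Y, were not used. The promoter comparison was tested on simulated copies. It took the place of a planned comparison of proteins, which were not used here. The lists are matched by name and are not complete.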

Additional observations from a re-analysis of the deposited data

How the results depend on the processing

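The count of few-guide genes with an unadjusted enrichment p under 0.05 was 11, and it became 7 of 198 without olfactory, vomeronasal and keratin genes and 3 at a p under 0.01 (1.22%, against 1.07% of all genes). The depletion count was 15, and it became 7 of 150 with at most 2 guides and 5 at a p under 0.01 (2.04%, against 1.12%). Fewer genes, or a stricter limit, entered in these settings, and the shares moved as well. The 7 of 198 were 3.54%, against 4.49% of the 245 for enrichment. The 7 of 150 were 4.67%, against 6.12% of the 245 for depletion. The other settings gave 8 and 11 for enrichment, and 14 and 13 for depletion. The median log2 fold change stayed below 0 in the settings run, between -0.098 and -0.15. No gene passed at a false discovery rate of 0.1 or 0.25, where 11 and 15 had an unadjusted p under 0.05. The spread at 1 guide over that at 6 guides was 2.43 by standard deviation and 2.05 by interquartile range. With other limits on shared promoter words, chosen after seeing the data, 66.2% (at least 20% of words) and 33.8% (at least 80%) of 160 genes passed. No paired analysis was possible because the table holds no value per library, and leaving out a library or replicate could not be done for the same reason. The planned comparison of proteins was not run.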

Other observations

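Of the 26 entries with names of the March and Sept families, 2 carry the date form that spreadsheet programs write, 5-Mar and 5-Sep. Each has 3 guides, and the entries March5, a mitochondrial ubiquitin ligase gene, and Sept5, a septin gene, also have 3 each, while the other 22 have 5 or 6 in the authors' deposited table. If the date forms are those genes, each gene was scored as a pair of entries that together hold 6 guides. March5 had a log2 fold change of -0.066 with 1 guide up and 1 down, and 5-Mar had -1.79 with 2 guides down in the authors' deposited table. Sept5 had -1.24 and 5-Sep had -0.21, each with 2 guides down and 0 up. The identity of the date forms is read from their names alone and was not tested.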
